A study of Mus musculus with 6 samples.

Results

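The genes of the constitutive proteasome and its direct helpers were compared between primary retinal pigment epithelium (RPE) cells of Normal mice and of mice with proliferative vitreoretinopathy (PVR). Members were taken by name: every gene whose symbol is Psma, Psmb, Psmc, Psmd, Psme, Psmf or Psmg followed by a number, without the 3 immunoproteasome genes Psmb8, Psmb9 and Psmb10. This gave 45 of the 28043 genes in the tables, namely 16 core genes (8 alpha and 8 beta), 9 base genes, 8 lid genes, 4 activators, 1 inhibitor and 7 assembly chaperones. The rule reads gene names only, although the genes were picked for study with earlier results of these data known. RPE is the pigmented layer behind the photoreceptors, and PVR is a scarring disease of the eye in which RPE cells can join contractile membranes. Polyadenylated RNA of 3 Normal and 3 PVR libraries was sequenced, and the series title calls the disease traumatic. Strain, age, sex, the way PVR was brought about, the time after it and the number of animals behind a library were not given in the sources used here. Nothing ties a replicate to an animal of its own, so the p-values reflect how far these libraries differ from one another, and that spread can be technical.

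The proteasome is the protease that destroys ubiquitin-tagged proteins in the cytosol and nucleus. Its core particle is a barrel of alpha rings, which form the gate, and beta rings, which hold the cutting sites. The regulatory particle that caps it has a base, with a ring of ATPases that unfold the substrate, and a lid, which takes off the ubiquitin. Other activators can replace that cap, chaperones build the particles, and inflamed tissue can exchange the cutting subunits for inducible ones. RPE cells digest shed photoreceptor tips in lysosomes and use the proteasome for the ordinary turnover of their own proteins.

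Values are read counts normalised by 1 size factor per library. They are given for Normal 1 to 3 and then PVR 1 to 3, or as the group mean ± SD (n = 3). A change is the difference of PVR from Normal in log2(normalised count + 1), above 0 where PVR is higher, with its standard error (SE) where shown. A gene is called when its adjusted p (limma, Benjamini-Hochberg over 15766 tested genes) is under 0.05. Libraries held 15269983 to 19173187 reads. A member had a median of 981.5 reads in a library, at which counting alone gives a coefficient of variation of 3.19%. The lowest count of a tested member was 38 reads, and 2 tested members had under 100 reads in some library. In a principal component analysis the first component (73.9% of variance) parted the groups, with PVR 3 nearest to the Normal libraries, and Normal 2 stood apart on the second. All 18 RPE markers were present in every library, and their summed level was 985131 to 1063791 in Normal and 689267 to 769385 in PVR. Of these 18 genes 10 were called lower and 2 higher, and 7 had a change above 0. Summed macrophage and microglia markers (20 genes, none at 0, 18 higher in PVR and 1 lower) were 10957 to 12320 in Normal and 40817 to 99478 in PVR. The 9 fibroblast markers (none at 0, 7 higher) summed to 3339 to 5465 and 17215 to 25989. Of 5 erythroid markers 3 were tested and all 3 were lower; they summed to 185 to 429.7 in Normal and 14.2 to 37.1 in PVR, with 1 marker at 0 in PVR 1 and in PVR 3. The part of these cells in the results was not tested. In bulk RNA, fewer cells of a type and less RNA per cell cannot be told apart.

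Of the 45 members, 43 had enough reads to be tested. The lid gene Psmd8 rose and the alpha-ring gene Psma7 fell. These 2 calls are 4.65% of the tested members, beside 30.8% of all tested genes (17.9% called higher and 12.9% lower). The other 41 tested members did not pass the test. With the libraries that stood apart (Normal 2 and PVR 3) both left out, 2 members were higher (Psmd8 and Psmd12) and 0 lower by limma (1 at an unadjusted p under 0.05). Without Normal 3 the higher ones were Psmd8 and Psmd2.

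Most members were measured closely enough to bound their change. In 38 of 43 members (88.4%) the 95% interval of the change lay within 1.5-fold either way, that is within a log2 change of 0.58. The same held for 31.1% of all tested genes. The median SE was 0.11 among members and 0.18 among all tested genes. The 5 members whose interval reached past 1.5-fold were Psmd8, Psme2, Psmd5, Psmg3 and Psmg4. The median change over tested members was 0.04, beside -0.02 over all tested genes, and the middle 50% of members lay between -0.09 and 0.17, beside -0.33 and 0.43. With scaling to library totals the members' median was -0.04. Apart from Psmd8, no tested member changed by more than 0.35 in either direction. Tested members summed to 0.255 to 0.272% of all normalised counts in the Normal libraries and 0.257 to 0.267% in the PVR libraries, so these ranges overlapped. As plain normalised counts the sum, which includes Psmd8, was 41916 to 44373 in Normal and 44751 to 47852 in PVR, without overlap. That gap rests on Psmd8, which had 1721 normalised counts in Normal 3 (sum 44373) and 2782 in PVR 2 (sum 44751). Without Psmd8 the sums of the groups overlap.

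Groups that did not overlap were about as frequent as elsewhere. In 10 members all PVR values lay above all Normal values, in 9 all lay below, and 24 overlapped. That is 44.2% without overlap, beside 48.0% of all tested genes (24.7% wholly above and 23.3% wholly below).

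**Figure D1:**
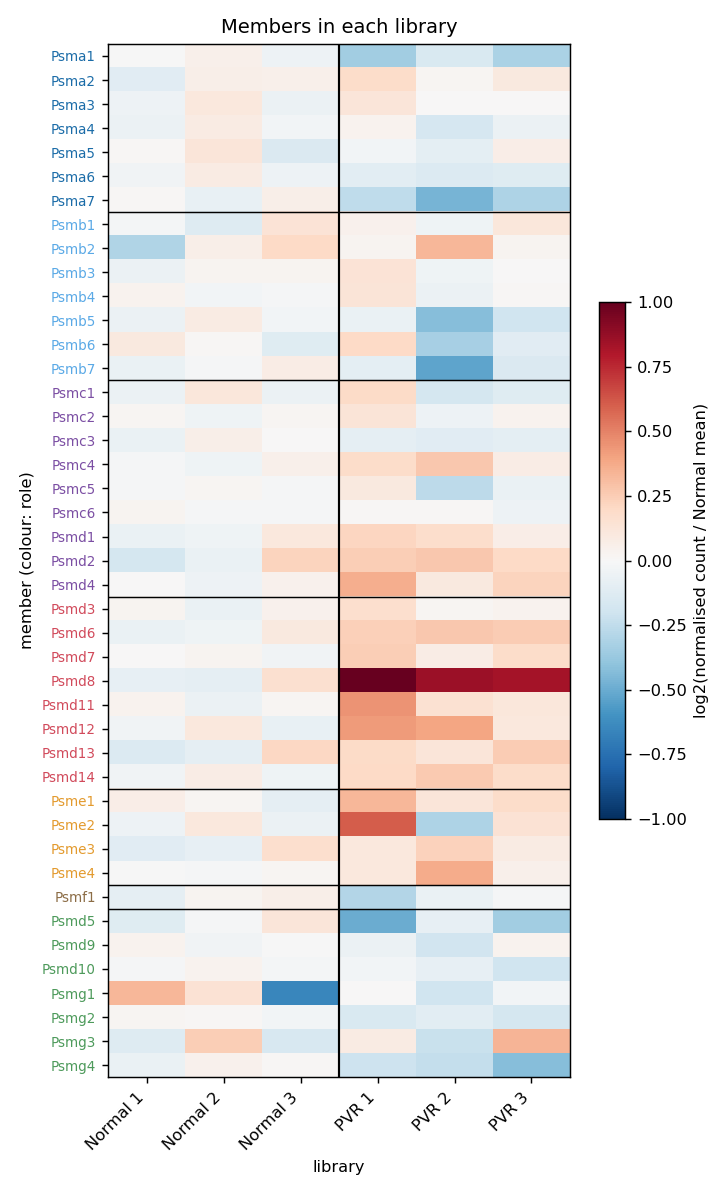
Each tested member (rows, coloured by role) in each library (columns), as log2 of its normalised count over the Normal mean. Colours stop at 1 in either direction, which Psmd8 in PVR 1 passes. Psmd8 is the row that stands out in all 3 PVR libraries, and the core rows Psma7, Psmb5 and Psmb7 are pale in Normal and bluest in PVR 2.

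All 8 lid members had a change above 0 (median 0.23, range 0.08 to 0.91), and so had all 4 activators (median 0.16). Sem1, a lid subunit gene that the name rule leaves out, had a change of -0.22 with overlapping groups. Of 7 chaperones 6 were below 0 (median -0.10). The 14 tested core genes lay on both sides (6 above and 8 below, median -0.04; without PVR 2, 8 above and 6 below), as did the 9 base genes (5 above and 4 below, median 0.04). With scaling to library totals the core split became 2 above and 12 below, whereas all 8 lid genes and all 4 activators stayed above 0. These signs are descriptions: outside Psmd8 no lid gene passed the test, and no base gene, activator or chaperone did by limma, edgeR, DESeq2 or limma-voom (at an unadjusted p under 0.05 limma had 1 chaperone, 0 base genes and 0 activators). The differences between roles were not tested.

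**Figure D2:**
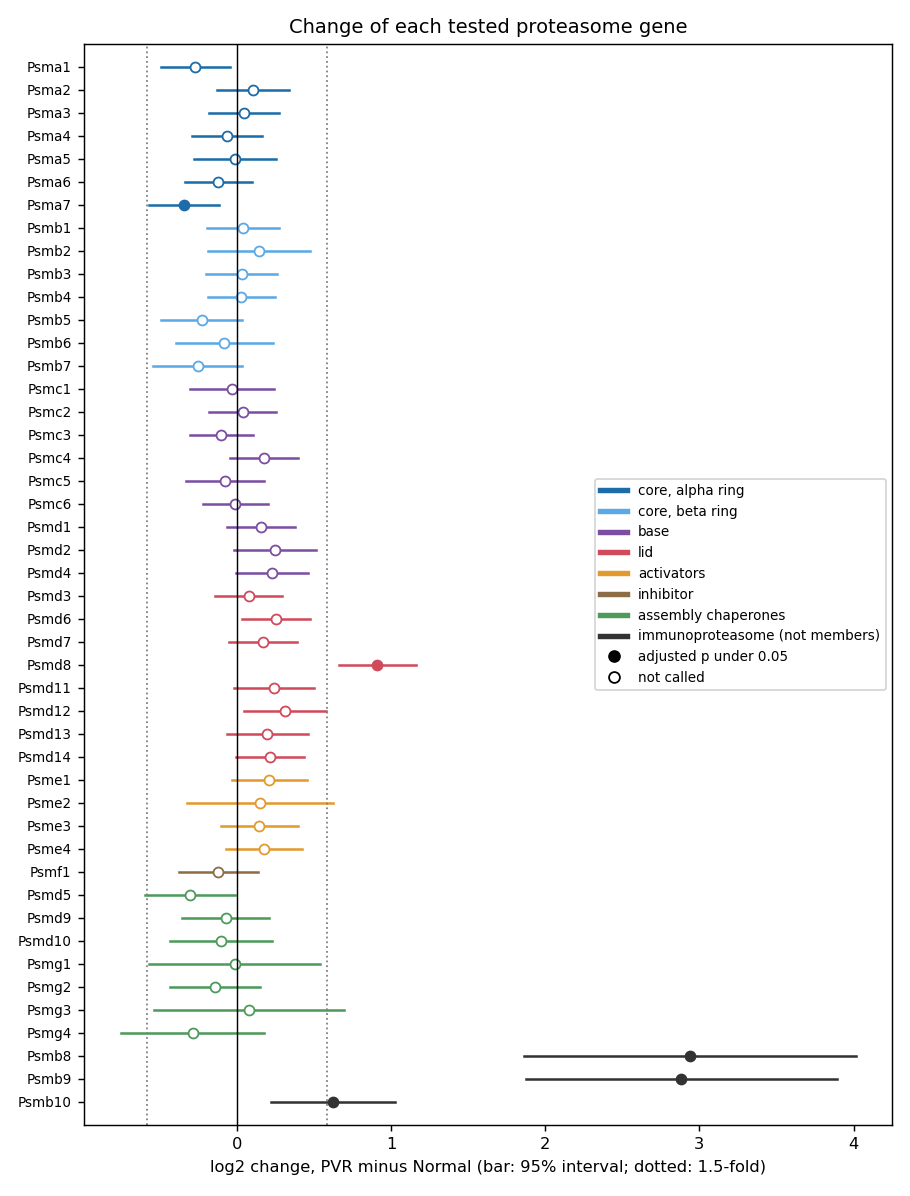
Log2 change, PVR minus Normal, of the 43 tested members and of Psmb8, Psmb9 and Psmb10, which are not members (points), with 95% intervals (bars); filled points passed the test and dotted lines mark 1.5-fold. Psmd8 at 0.91 lies to the right of all other members, which fall between -0.34 and 0.31, and Psmb8 and Psmb9 lie near 3.

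Psmd8 encodes Rpn12, the lid subunit that joins last when the lid is built. Its gene lies at chr7:29174188-29180701 on the minus strand of GRCm38. It had 1454, 1449 and 1721 normalised counts in Normal and 3166, 2782 and 2737 in PVR. The lowest PVR library was thus well above the highest Normal library. The mean rose from 1542 ± 155 to 2895 ± 236 (n = 3 each), 1.88-fold, with a log2 change of 0.91 (SE 0.11, 95% interval 0.66 to 1.16, limma adjusted p = 0.000386). The call held in 17 of 17 alternative settings, with changes from 0.84 to 0.99 and a highest adjusted p of 0.00298. No annotated transcript copy of Psmd8 and no exon shared with another gene in the tables was found.

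Psmd8 also gained on the other lid genes. Per kilobase of its principal transcript, the isoform GENCODE marks as the main one, it rose from 1001 ± 101 to 1880.1 ± 153 normalised counts. On that scale it went from rank 8 to rank 1 among the 43 tested members. Its level over the median of the other lid genes was 2.04, 1.88 and 2.08 in Normal and 3.59, 3.18 and 3.20 in PVR (PVR mean 3.32 ± 0.23). All 3 PVR ratios were above all 3 Normal ratios. Among the PVR libraries Psmd8 was highest in PVR 1 (3166) and lowest in PVR 3 (2737), just under PVR 2 (2782). The macrophage and microglia markers summed highest in PVR 2 (99478) and lowest in PVR 3 (40817). The part of such cells in the level of Psmd8 was not tested.

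The promoters of 4 members are shown because they belong to the gene that rose (Psmd8), to the lid gene next in size of change (Psmd12), and to core genes that hold the antioxidant-type element close to their start (Psmb5 and Psmb6). That element, written TGACNNNGC, is the site through which the factors Nrf1 and Nrf2 are known to drive proteasome genes. Sequences are RefSeq's for GRCm38.p6, 5′ to 3′ on the gene's strand, cut to the part upstream of the start that holds no annotated exon, and capitals mark a match on either strand.
Psmd8 (chr7:29180702-29180923, minus strand): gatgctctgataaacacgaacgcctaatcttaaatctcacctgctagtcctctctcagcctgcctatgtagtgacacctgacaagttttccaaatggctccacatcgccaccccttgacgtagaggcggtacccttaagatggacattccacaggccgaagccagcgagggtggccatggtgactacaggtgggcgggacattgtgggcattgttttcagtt
Psmd12 (chr11:107479278-107479483, plus strand): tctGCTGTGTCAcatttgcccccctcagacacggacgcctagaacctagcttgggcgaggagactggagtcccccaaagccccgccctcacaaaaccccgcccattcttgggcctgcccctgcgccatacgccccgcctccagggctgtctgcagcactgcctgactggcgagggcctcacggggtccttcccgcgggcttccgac
Psmb5 (chr14:54618023-54618245, minus strand): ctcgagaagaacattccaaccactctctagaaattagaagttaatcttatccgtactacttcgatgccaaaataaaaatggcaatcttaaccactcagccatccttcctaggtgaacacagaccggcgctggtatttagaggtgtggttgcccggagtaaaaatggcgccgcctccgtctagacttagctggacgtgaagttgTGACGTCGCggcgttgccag
Psmb6 (chr11:70525107-70525356, plus strand): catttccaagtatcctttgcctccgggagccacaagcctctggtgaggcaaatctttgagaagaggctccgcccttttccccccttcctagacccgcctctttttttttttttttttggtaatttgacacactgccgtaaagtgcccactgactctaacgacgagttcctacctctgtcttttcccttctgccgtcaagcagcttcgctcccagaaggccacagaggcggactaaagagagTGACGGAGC

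The match began 47 bases before the start in Psmb5, 9 bases before it in Psmb6 and 247 bases before it in Psmd12. The stretch printed for Psmd8 holds none. RefSeq promoters were matched for 37 members (40 windows of 250 bases). TGACNNNGC was found in 5 windows (12.5%), those of Psmb5, Psmb6, Psmc6, Psmd12 and Psmd9, beside 10.2% of all 32851 windows of that length. The CCAAT box was found in 13 member windows (32.5%) and in 33.8% of all. An interferon-type motif (GAAA, any 2 bases, GAAA) was found in 3 member windows (7.5%), those of Psmb3, Psmd4 and Psmd9, and in 2.98% of all. Both strands were searched, and a match is a match of letters only. Among the 5 genes with TGACNNNGC, Psmd12 had the largest change in either direction (0.31). None of these 5 was called, beside 4.65% of the tested members and 30.8% of all tested genes.

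The other 7 lid genes had changes of 0.08 to 0.31 (median 0.21), and in 5 of them the PVR libraries lay wholly above the Normal ones, beside 24.7% of all tested genes. Psmd12, which encodes the scaffold subunit Rpn5, had 789, 869.6 and 769 normalised counts in Normal and 1089, 1063 and 871 in PVR. PVR 3 lay just above Normal 2, so the groups barely parted. The log2 change was 0.31 (SE 0.12, 95% interval 0.05 to 0.58, limma adjusted p = 0.0746). The adjusted p was 0.0243 without PVR 3 and 0.0380 without both Normal 2 and PVR 3. Psmd6, which encodes the scaffold subunit Rpn7, had 710.1, 721 and 794 in Normal and 874, 892 and 883 in PVR (log2 change 0.25, limma adjusted p = 0.0812). Its 3 PVR values were close together and above every Normal value.

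The lid's ubiquitin-removing enzyme is Psmd14 (Rpn11). It had 713, 771 and 709 normalised counts in Normal and 838, 875 and 831 in PVR (log2 change 0.21, limma adjusted p = 0.128), again with no overlap. Psmd7, which encodes its partner Rpn8, had 959.5, 977 and 934 in Normal and 1138, 1009 and 1086 in PVR (0.17, adjusted p = 0.219). Psmd11 (Rpn6) had 980.2, 919 and 965 in Normal and 1306, 1062 and 1032 in PVR (0.24, adjusted p = 0.146). Psmd7 and Psmd11 also showed no overlap between the groups. Psmd13 (Rpn9) overlapped, with 843, 873 and 1071 in Normal and 1063, 1013 and 1106 in PVR (0.20). Psmd3 (Rpn3) had the smallest lid change: 2009, 1883 and 2028 in Normal and 2213, 2003 and 2025 in PVR (0.08, 95% interval -0.14 to 0.29). Psmd6, Psmd7, Psmd11, Psmd13 and Psmd14 were added to the named genes after their values were seen.

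**Figure D3:**
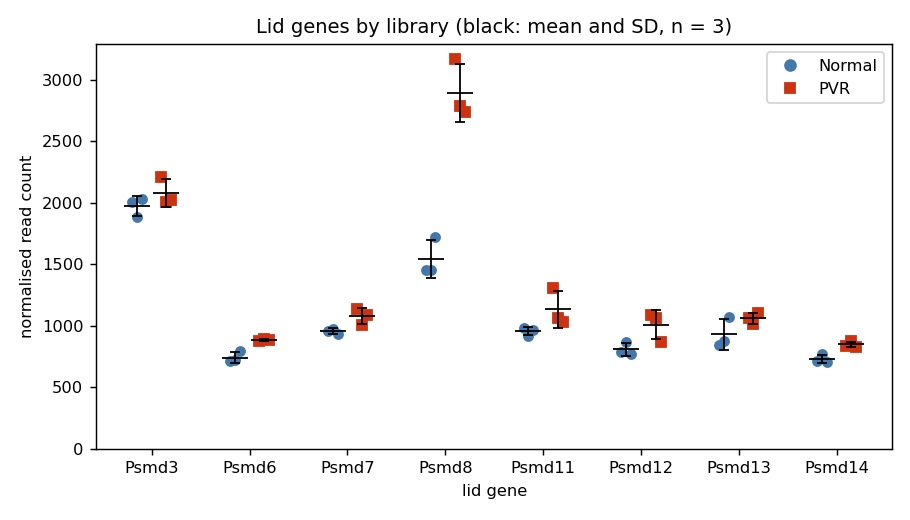
Normalised read counts of the 8 lid genes (x axis) in the 3 Normal (circles) and 3 PVR (squares) libraries, with the mean and SD in black. Psmd8 goes from 1542 to 2895, while PVR means of the other 7 exceed Normal means by 1.24-fold at most (Psmd12).

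The base carries the ATPase ring (Psmc1 to Psmc6), the scaffold subunits Psmd1 and Psmd2 and the ubiquitin receptor Psmd4. Changes ran from -0.10 to 0.25, none was called, and all 9 intervals lay within 1.5-fold. Psmd4 (Rpn10) had the smallest p: 1116, 1076 and 1145 normalised counts in Normal and 1430.3, 1190.2 and 1296 in PVR (log2 change 0.23, SE 0.10, limma adjusted p = 0.127). Its groups did not overlap. Psmd2 (Rpn1), with 2621, 2826 and 3452 in Normal and 3517, 3576 and 3408 in PVR, did overlap through Normal 3 (0.25, adjusted p = 0.141), and without Normal 3 its adjusted p was 0.0404.

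The 6 ATPase genes had changes of -0.10 to 0.18. Psmc6 had 967, 943 and 943 normalised counts in Normal and 959, 959 and 916 in PVR (log2 change -0.01, 95% interval -0.22 to 0.20). Its 6 libraries spanned a narrow range with the groups mixed. Psmc2 had group means of 1177 ± 27.8 and 1209 ± 77.0 (0.04) and Psmc1 of 1240.1 ± 88.2 and 1219 ± 170.3 (-0.03). Psmc4 lay wholly above in PVR (1092 ± 34.8 to 1235 ± 81.1, 0.18) and Psmc3 wholly below (1829.7 ± 81.9 to 1705 ± 14.2, -0.10), and neither passed the test (limma adjusted p = 0.207 and 0.444). Psmc1 to Psmc4 and Psmd2 were likewise named after their values were seen.

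In the core, Psma7, which encodes an alpha-ring subunit, was the member that fell (chr2:180036374-180042433, minus strand). It had 1411, 1332 and 1459 normalised counts in Normal and 1173, 1013 and 1129.6 in PVR. Every PVR library was below every Normal library, and PVR 2 was lowest. The mean went from 1401 ± 64.3 to 1105 ± 82.9, 0.789-fold, with a log2 change of -0.34 (SE 0.10, 95% interval -0.57 to -0.12, limma adjusted p = 0.0289). The call held in 11 of 17 alternative settings. It was lost without Normal 1 (adjusted p = 0.0807), Normal 2 (0.0540), Normal 3 (0.0901) or PVR 2 (0.0944), without both Normal 2 and PVR 3 (0.0773), and with no filter on low counts (0.0517).

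Psma1, another alpha-ring gene, had 1288, 1342 and 1253 normalised counts in Normal and 1015, 1166 and 1041 in PVR. Its groups did not overlap either (log2 change -0.27, SE 0.10, limma adjusted p = 0.0671), and with scaling to library totals its adjusted p was 0.0404. Psma5 moved least: 483, 521 and 433 in Normal and 471, 448 and 502 in PVR (-0.01, 95% interval -0.28 to 0.25), with the groups fully mixed. The other 4 tested alpha genes, Psma2, Psma3, Psma4 and Psma6, had changes of -0.12 to 0.10.

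The beta ring holds the 3 cutting subunits, Psmb5 (chymotrypsin-like), Psmb6 (caspase-like) and Psmb7 (trypsin-like). Psmb5 had 885, 977 and 905 normalised counts in Normal and 879, 687 and 805 in PVR (log2 change -0.23, 95% interval -0.49 to 0.03, limma adjusted p = 0.17). Psmb7 had 1020.4, 1056 and 1124 in Normal and 997, 741 and 962 in PVR (-0.26, 95% interval -0.54 to 0.03, adjusted p = 0.162). Both lay wholly below in PVR by narrow gaps, with PVR 2 lowest. Psmb6 had 1338, 1259.5 and 1151 in Normal and 1434, 992 and 1152 in PVR (-0.08), and its PVR libraries reached both above and below the Normal ones. Psmb7 shares 405 annotated exon bases with Nek6 on the opposite strand, and Nek6 rose from 3169.9 ± 177 to 4643 ± 688 (log2 change 0.54, adjusted p = 0.00834). The counting's use of strand is not given in the sources used here, so reads in the shared bases cannot be told apart.

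The other tested beta genes, which have no cutting site, had changes close to 0. Psmb4 had 1823, 1746 and 1769 normalised counts in Normal and 1946, 1709.6 and 1796 in PVR (log2 change 0.03, 95% interval -0.19 to 0.24). PVR 1 was its highest library and PVR 2 its lowest. Psmb1, Psmb2 and Psmb3 had changes of 0.03 to 0.14. Psmb5, Psmb6 and the members given here by ranges were named after their values were seen.

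The remaining 2 members, with tissue-restricted roles, were not tested for lack of reads. Psma8, the alpha subunit of the testis proteasome, had 0, 0.926 and 0 normalised counts in Normal and 3.09, 4.56 and 0.944 in PVR. Psmb11, the beta subunit of the thymus proteasome, had 3.09, 0.926 and 2.72 in Normal and 3.09, 0 and 0.944 in PVR. A count of 0 allows up to 3 reads, or 2.72 to 3.42 normalised counts by library, so nearly all these values lie at or under what 0 reads allow.

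Psmb8, Psmb9 and Psmb10, the inducible subunits that take the places of Psmb5, Psmb6 and Psmb7, are no members and serve here as the contrast. Psmb8 had 27.8, 12.0 and 9.97 normalised counts in Normal and 196, 134 and 68.9 in PVR (log2 change 2.94, limma adjusted p = 0.00175). Psmb9 had 8.25, 12.0 and 3.63 in Normal and 74.1, 46.7 and 61.4 in PVR (2.88, adjusted p = 0.00125). Psmb9 shares 212 annotated exon bases with Tap1 on the opposite strand, and Tap1 rose from 109 ± 25.3 to 357 ± 103 (log2 change 1.68, adjusted p = 0.000862), so the limit given for Psmb7 holds for Psmb9 and its share too. Psmb10 had 137, 166 and 162 in Normal and 290.4, 229 and 204 in PVR (0.62, adjusted p = 0.0259), a call lost without Normal 1 (0.0943), Normal 3 (0.0555), PVR 1 (0.0881) or PVR 2 (0.0534). All 3 lay wholly above in PVR.

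Per kilobase of principal transcript, Psmb8 made up 1.71, 0.676 and 0.604% of Psmb8 plus Psmb5 in Normal and 10.9, 9.75 and 4.52% in PVR. Psmb9 made up 0.362, 0.561 and 0.186% of Psmb9 plus Psmb6 in Normal and 2.96, 2.70 and 3.05% in PVR. Psmb10 made up 10.6, 12.2 and 11.3% of Psmb10 plus Psmb7 in Normal and 20.5, 21.5 and 15.8% in PVR. The constitutive gene therefore kept the larger share of each pair in every library. The log2 ratio of inducible to constitutive gene was higher in PVR by 3.26, 3.15 and 0.88 in turn (exact two-sided permutation p = 0.1 for each of the 3 ratios, 0.1 after adjustment, and the smallest p that 3 against 3 libraries allow). The shares depend on the transcript length used: with the union of all exons Psmb10 made up 22.5% in Normal and 35.0% in PVR on average. Macrophages carry inducible subunits as a rule, and the marker levels given above moved in the same direction as these genes: PVR 3 had the lowest macrophage marker sum of the PVR libraries and the lowest Psmb8 and Psmb10 values, whereas Psmb9 was lowest in PVR 2, which had the highest sum. Summed interferon markers were also higher, at 10222 to 11240 in Normal and 29022, 18568 and 18714 in PVR. That sum was highest in PVR 1, as were Psmb8, Psmb9 and Psmb10. It was lowest of the PVR libraries in PVR 2, as was Psmb9, whereas Psmb8 and Psmb10 were lowest in PVR 3. The part of macrophages and the part of interferon in these genes were not tested.

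**Figure D4:**
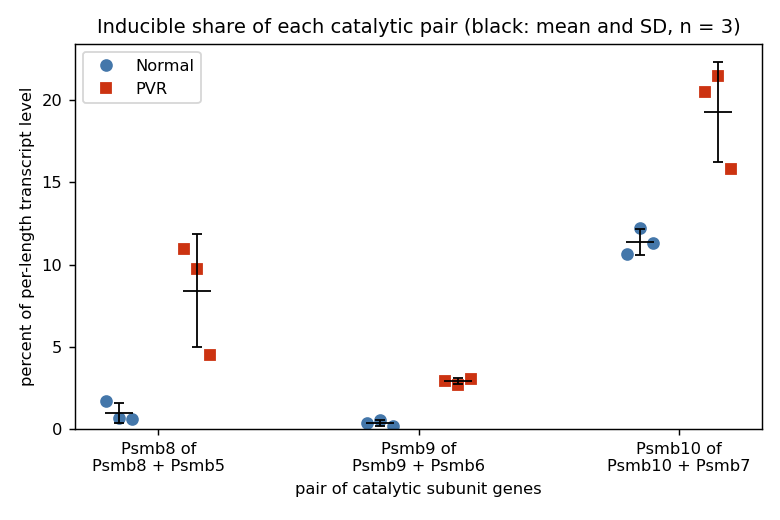
Share of the inducible gene in each catalytic pair (percent of the pair's level per kilobase) in the 3 Normal (circles) and 3 PVR (squares) libraries, with mean and SD in black. All PVR points lie above the Normal points of the same pair and none reaches 25%.

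Among activators, Psme1 and Psme2 form the interferon-inducible cap, Psme3 the nuclear one and Psme4 a large single-chain one. Psme1 had 633, 615 and 568 normalised counts in Normal and 762, 657 and 686 in PVR, without overlap (log2 change 0.21, SE 0.11, limma adjusted p = 0.172). Psme2 had 293, 325 and 290.0 in Normal and 461, 244 and 335 in PVR (0.15, 95% interval -0.33 to 0.62). PVR 1 was far above and PVR 2 below all Normal libraries, and without PVR 1 the change of Psme2 was -0.08. Psme3 had 1047, 1069.7 and 1272 in Normal and 1214, 1328 and 1198 in PVR, with overlap (0.15, adjusted p = 0.352). Psme4 had 1263, 1257 and 1282 in Normal and 1360.2, 1639 and 1312 in PVR, wholly above, with PVR 2 highest (0.17, adjusted p = 0.262). The inhibitor gene Psmf1 had 665, 723 and 739.6 in Normal and 579, 679 and 702 in PVR, with overlap (-0.12, adjusted p = 0.455).

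Of the 7 chaperones that build the particles none was called, and 4 of 7 intervals lay within 1.5-fold. Psmd5, a chaperone of the base, had 729.7, 785 and 861 normalised counts in Normal and 560.2, 749 and 622 in PVR. PVR 2 lay inside the Normal range, and PVR 1 and PVR 3 lay below it (log2 change -0.31, SE 0.13, 95% interval -0.60 to -0.01, limma adjusted p = 0.108). Without PVR 2 its adjusted p was 0.0421. Psmg1, a chaperone of the alpha ring, had 216, 191 and 109.7 in Normal and 173, 150.3 and 169 in PVR (-0.01, 95% interval -0.57 to 0.54). Its spread came from Normal 3, which was the lowest of all 6 libraries. Psmg2, the partner of Psmg1, lay wholly below in PVR (250.4 ± 4.19 to 227 ± 5.29, -0.14, adjusted p = 0.443). Psmd9, Psmd10, Psmg3 and Psmg4 had changes of -0.29 to 0.08. Psmg2 and these 4 were named after their values were seen.

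Levels per kilobase differed far more between members than between groups. In Normal the highest were Psmb6 (1566 ± 118), Psma7 (1532 ± 70.4) and Psmb4 (1504 ± 33.6), which lay within each other's spread. The lowest was the chaperone gene Psmg3 (57.3 ± 9.40). In PVR, Psmd8 (1880.1 ± 153) was followed by Psmb4 (1536 ± 101) and Psmb6 (1495 ± 281), and Psma7 was at rank 4. Across the 43 tested members the log2 levels per kilobase of the 2 groups correlated with Pearson r = 0.982 and Spearman rho = 0.974. This is across genes, which share transcript lengths and libraries and are not replicates. Within the core the highest level was 5.49 ± 0.56 times the lowest in Normal and 4.98 ± 0.31 times in PVR, although the assembled core holds its subunits in equal numbers. The median level per kilobase of base and lid genes over that of core genes was 0.774, 0.682 and 0.741 in Normal and 0.865, 0.848 and 0.793 in PVR, with no overlap. These levels rest on the annotated transcript length: with the union of exons the ratio was 0.915 in Normal and 1.14 in PVR on average, and Psma7 was at rank 12 in Normal, while Psmd8 was again at rank 1 in PVR.

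**Figure D5:**
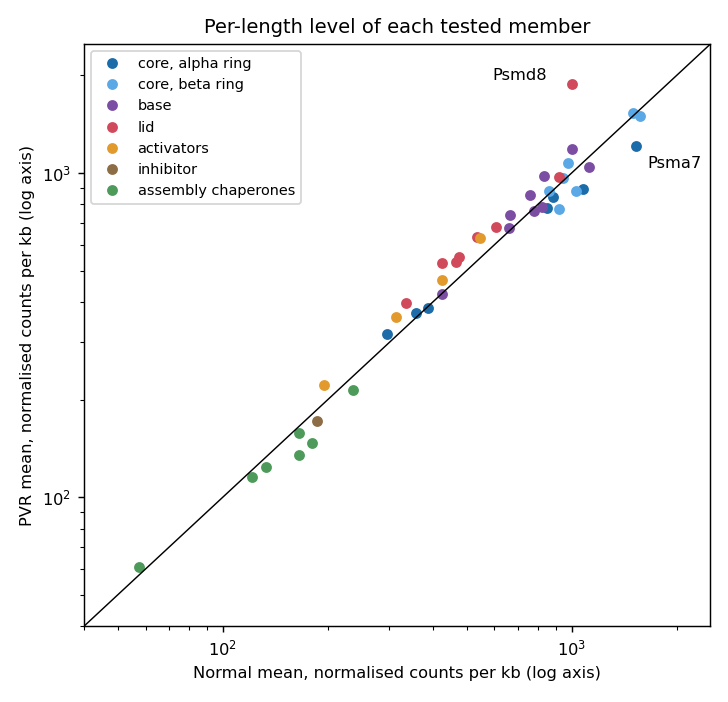
Mean normalised counts per kilobase of principal transcript of the 43 tested members in Normal (x axis) and PVR (y axis), both on log axes, coloured by role; the line marks equal levels. Psmd8 is the point farthest above the line and Psma7 lies below it, while chaperones sit at the low end.

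Factors that control proteasome genes were read from a list of 8. Nfe2l2, which encodes Nrf2, had 1012, 882 and 998 normalised counts in Normal and 1574, 1595 and 1169 in PVR. The groups did not overlap, and it was the 1 gene of the list that was called, 12.5% beside 30.8% of all tested genes (963.9 ± 71.6 to 1446 ± 239.9, log2 change 0.57, SE 0.14, limma adjusted p = 0.0108). Nfe2l1, which encodes Nrf1, the factor that restores proteasome genes after inhibition, had 8671, 9302 and 9941 in Normal and 9607, 6956 and 8906 in PVR, with overlap (-0.14, adjusted p = 0.458). The Nrf2 partner gene Mafk (632 ± 239.97 to 1673 ± 802, log2 change 1.38) and the repressor gene Bach1 (831 ± 179 to 1682 ± 724, 0.96) were not called (adjusted p = 0.0667 and 0.0684). Both had no overlap between groups, and with the replicate block their adjusted p was 4.23e-05 and 0.00466.

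Of 19 partners of the proteasome 0 were called by limma, edgeR, DESeq2 or limma-voom, beside 30.8% of all tested genes by limma, and 1 had an unadjusted p under 0.05. That gene was Usp14, the deubiquitinase that docks on the base, with 504, 557 and 515 normalised counts in Normal and 621, 834 and 599.7 in PVR (log2 change 0.37, SE 0.14, adjusted p = 0.0755). With the replicate block its adjusted p was 0.0392. The core maturation factor Pomp (888 ± 13.4 to 819 ± 160.0, -0.13), the ubiquitin receptor Adrm1 (1223 ± 145 to 1393 ± 154, 0.19) and the small lid subunit Sem1 (595 ± 47.8 to 517 ± 128, -0.22) had overlapping groups. These 3 were chosen after their values were seen.

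Of 22 genes that make ubiquitin, load it or extract proteins for the proteasome, 4 rose and 0 fell by limma, edgeR, DESeq2 and limma-voom (0 were lower at an unadjusted p under 0.05). The 4 calls are 18.2% of the list, close to the 17.9% of all tested genes called higher. Ube2l6, an interferon-induced enzyme that conjugates a ubiquitin-like protein, had 27.0 ± 6.97 normalised counts in Normal and 146 ± 55.0 in PVR, a log2 change of 2.36 with an adjusted p of 0.000711. The other 3 belong to the machinery that returns misfolded proteins from the endoplasmic reticulum to the proteasome. Sel1l had 2301, 2325 and 2719 normalised counts in Normal and 3945, 4068 and 3301 in PVR (0.62, adjusted p = 0.0036). Derl1 went from 1910.4 ± 145 to 2436 ± 68.3 (0.35, adjusted p = 0.0226), and Syvn1, the ligase of that pathway, from 1488 ± 300.3 to 2100.2 ± 202 (0.51, adjusted p = 0.0319). The Derl1 call was lost without Normal 1 (0.0694), Normal 2 (0.0997), PVR 1 (0.0639) or PVR 2 (0.0560), and the Syvn1 call without Normal 2 (0.0943), Normal 3 (0.0533), PVR 1 (0.102) or PVR 3 (0.0757). Without both Normal 2 and PVR 3 these 2 calls were lost (0.128 and 0.158). Vcp, the ATPase that pulls proteins out of membranes, had 6380, 6273 and 6807 in Normal and 8159, 7289 and 7283 in PVR, wholly above but not called (0.22, adjusted p = 0.125). The ubiquitin gene Ubb overlapped (16564 ± 1752 to 16301 ± 2398, -0.03).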

How the data were processed

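Polyadenylated RNA was measured in 6 mouse libraries, grouped and numbered by their titles. Each deposited value is a normalised signal: the authors divided each read count by 1 size factor per library, as the values show, since 100% gave whole reads within 0.001 reads. The factors equal DESeq2 median-ratio factors. Build mm10 (GRCm38) and DESeq2 are named per the submitters' processing notes; aligner, counter and strand use were not given in the sources used here. Of the gene names, 26 are dates (0.102% of reads). No 2 libraries were duplicates.

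limma 3.58.1 (R 4.3.3; trend, robust) was fitted to log2(normalised count + 1) for genes passing filterByExpr of edgeR 4.0.16 on recovered reads (minimum count 10), with a two-sided test. Scripts were tested on simulated data. Same-numbered Normal and PVR libraries deviated together (correlations 0.206, 0.195 and 0.179; other pairs -0.137 to -0.0689). The labels state no pairing beyond the shared numbers, and these correlations are the sign of it in the values. The main fit and the exact permutations took the libraries as unpaired, and a replicate block was an alternative. Alternatives are in the closing section.

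Named genes were all called members, per role the uncalled member with the smallest p and the one with the smallest change, and up to 4 called genes per direction of each other list. Members and lists were chosen with earlier results of these data known. Lengths and coordinates are GENCODE M21's. Near-identical transcripts were sought with BLAST 2.17.0 (at least 90% identity over 200 bases). Plots used matplotlib 3.10.9. Counting precision and floors cover counting error only, because reads lack molecular identifiers.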

Additional observations from a re-analysis of the deposited data

How the results depend on the processing

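Of 731 member changes under 17 alternative settings, 690 kept their direction and side of the threshold, 6 lost the call (all Psma7), 5 gained one and 30 changed sign, in 14 members whose main change was at most 0.15. With scaling to library totals 2 members were lower, the median change of members was -0.037, and Psma3 (-0.028), Psmb1 (-0.035), Psmb3 (-0.043), Psmb4 (-0.045) and Psmc2 (-0.037) changed sign; the median of all genes moved from -0.02 to -0.09. With no filter 0 members were lower. With Normal 2 and PVR 3 both left out 2 members were higher and 0 lower, and Psma5 (0.0042), Psmb1 (-0.060), Psmc1 (0.069), Psmc6 (0.0057) and Psmg1 (0.065) changed sign, as did Psmg1 with limma-voom (0.0048). The cause was not tested.

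Leaving out 1 library at a time gave 2189 to 2763 genes higher (2825 with all libraries) and 1312 to 2012 lower (2033, with 1312 without Normal 1), 1 to 2 members higher, 0 to 1 lower, and a median change of -0.011 to 0.069. Changes then ran from -0.086 to 0.048 in Psma5, -0.023 to 0.11 in Psmb1, -0.00037 to 0.25 in Psmb2, -0.021 to 0.069 in Psmb3, -0.022 to 0.072 in Psmb4, -0.22 to 0.044 in Psmb6, -0.14 to 0.037 in Psmc1, -0.0085 to 0.083 in Psmc2, -0.16 to 0.014 in Psmc5, -0.021 to 0.012 in Psmc6, -0.080 to 0.38 in Psme2, -0.31 to 0.18 in Psmg1 and -0.059 to 0.22 in Psmg3. Inducible to constitutive log2 ratios were higher in PVR by 2.98 to 3.73 (Psmb8), 2.72 to 3.52 (Psmb9) and 0.78 to 1.05 (Psmb10). Union-of-exon lengths, an alternative chosen after seeing the data, cannot alter these differences, because a length is the same in every library. Other tools called 4706 (edgeR), 4824 (DESeq2) and 4718 (limma-voom) genes, beside 4858. With the replicate block 5328 genes were called, with 1 member higher and 1 lower (Psma7 adjusted p = 0.0237), and apart from Mafk, Bach1, Usp14 and Emc9 (adjusted p 0.0602 without and 0.0410 with the block) it changed no other call among the named genes. Members under 100 reads (Psmg3 and Psmg4) are limited by depth.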

Other observations

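Near-identical transcripts of members, mostly processed pseudogenes, were annotated for 16 members, and for 12 of them a copy was in the tables. How the counting shared reads between such pairs is not given in the sources used here, and these members are uncertain to that extent. The share was largest for Psma3. Its copies, chiefly Gm13835 (417 ± 26.2 normalised counts in Normal and 478 ± 59.9 in PVR), made up 29.1% of the sum of Psma3 and copies in Normal and 31.3% in PVR. That sum was 1438 ± 87.4 and 1530.5 ± 102. Copies of Psme2, chiefly Psme2b (114 ± 19.8 and 123 ± 42.2), made up 27.4% and 26.6%, and the sum of Psme2 and copies was 417 ± 39.4 and 472 ± 149.5.

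The Psmd2 copy Gm5422 behaved differently from Psmd2 itself. It had 47.4, 44.5 and 50.8 normalised counts in Normal and 72.1, 146 and 146 in PVR, and rose (log2 change 1.27, SE 0.30, limma adjusted p = 0.0113), while Psmd2 was not called (0.25). PVR 1 was the lowest PVR library and still above every Normal one. Copies were 1.59% of the sum of Psmd2 and copies in Normal and 3.39% in PVR, so they add little to the level of Psmd2. Gm5422 was chosen after its values were seen.

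Besides Psmb7 with Nek6, 7 members share annotated exon bases with another gene in the tables: Psmd13 with Sirt3 (342 bases), Psmd1 with Htr2b (252), Psmc3 with Slc39a13 (215), Psma4 with AY074887 (114), Psma5 with 1700010K24Rik (60), Psmd3 with Gm12356 (17) and Psme1 with Emc9 (14). Neither Psmd8 nor Psma7 is among them, and neither had an annotated copy.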
